A study of Mus musculus with 9 samples.

Results

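The 10 cohesin and shugoshin genes described were chosen by name: Smc1b and Smc3 (the SMC arms of the ring), Rec8, Rad21 and Rad21l (kleisins, which close it), Stag3 and Stag1 (HEAT-repeat subunits bound to the kleisin), Pds5b (a regulator of how long the ring stays on DNA), and Sgo1 and Sgo2a (shugoshins). Of these, 9 have values among the 28051 genes of the normalized matrix, the level of Rec8 was not analysed here, and 8 passed the filter on low counts, which left 10993 genes in the test. The libraries came from 18-day-old mice, and each held the RNA of 30 oocytes, 10 of them 50–55 µm and 20 of them 55–60 µm in diameter. There were 3 pools of each genotype. XX oocytes, with 2 X chromosomes, and XY oocytes, of sex-reversed females whose Y chromosome came from B6.YTIR sires, were produced by the same cross to B6 (C57BL/6J) females. XO oocytes, with a single X chromosome, came from another cross, of males carrying Paf to B6 females, the Paf line having been backcrossed to B6 from C3H/HeSnJ. Genotype and cross cannot be told apart in XO. The pools of a genotype are labelled as biological triplicates, but the sources used here do not say which animals gave which pool, so p-values measure the spread between pools, which may be partly technical.

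The transcripts of the cohesin ring and of its shugoshin guardians were present in growing oocytes of all 3 genotypes. Pds5b was the most abundant of them and, of the 8 tested, the one that varied most, with an 8.24-fold range over the 9 oocyte pools. Between XX and XO oocytes, 2 of the 8 tested genes, Pds5b and Stag3, were lower in XX at an unadjusted p below 0.05 (edgeR), where 18.1% of all genes tested were called, and neither was called by edgeR with TMM scaling on the genes themselves. Their log2 fold changes were then -1.26 and -0.98, and DESeq2 with its own size factors, also set on the genes, called Pds5b at -1.37. No gene of the set was called between XX and XY oocytes or between XY and XO oocytes, where 5.8% and 9.93% of all genes were.

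Cohesin holds the sister chromatids of each chromosome together from DNA replication until they separate. In meiosis, REC8, SMC1B and STAG3 replace or join the mitotic subunits RAD21, SMC1A and STAG1 or STAG2. The mouse oocyte loads this meiotic cohesin before birth and then stays arrested through its whole growth, so that the rings which hold its chromosomes are long-lived. At the first meiotic division separase cuts the kleisin along the arms, while shugoshin, with the phosphatase PP2A, protects cohesin at the centromeres until the second division.

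The libraries held 2130145 to 3157338 UMIs of genes, that is unique molecular identifiers, each counted once at the 5′ end of a transcript. The sums over 6 Y-linked genes were 1440 to 1603 UMIs in XY libraries, 1 to 3 in XX and 1 to 4 in XO libraries. All 12 oocyte markers had values, with sums of 22369 to 25790 normalized CPM in the XX libraries, 10259 to 50774 in those of XO and 14736 to 22959 in those of XY. Granulosa cell markers summed to 49.4 to 97.2 normalized CPM over all libraries, and 9 of the 12 had values. Of these, Inha, Wt1 and Amhr2 had at most 3 UMIs in all libraries together. Most of the granulosa UMIs were of Nr5a2 (41 to 114 a library), Cyp19a1 (7 to 147, highest in XY3) and Kitl (11 to 63). Of 8 theca and stroma markers 6 had values (2.13 to 8.55 normalized CPM in sum), and of 8 blood, immune and endothelial markers 4 had values, with sums of 16.1 to 134 normalized CPM, highest in an XO library. Most of these UMIs were of 1 gene, Pecam1, with 233 of the 237 in XO3, 211 in XO2 and 28 to 188 in the other libraries. Cd68 and Lyz2 each had at most 3 UMIs in all libraries together. Markers of dividing cells, which oocytes also make, summed to 1203 to 4212 normalized CPM. The library XO1 stood apart from XO2 and XO3. Mitochondrial genes took 13.1% of its UMIs, against 3.12% and 2.65% in the other XO libraries, 10.8% in XY1 and 3.01 to 6.02% in the rest. Fold changes of XX against XO are therefore given with and without XO1. Each pool held 30 oocytes, but for other cell types fewer cells and less RNA per cell cannot be told apart.

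The normalized CPM of the authors scales each library by its UMI total and a factor from the ERCC spike-ins, RNAs added to the lysis buffer. On that scale the median log2 difference over all genes tested was -0.46 for XX against XO, -0.19 for XX against XY and -0.30 for XY against XO, so that a value near these is that of the typical gene. With TMM, a scaling on the genes themselves, the medians were -0.03, -0.04 and -0.02. Taking the ERCC total, the sum of the spike-in UMIs, as library size gave 0.42, 0.49 and -0.11. The medians of XX against XO and of XX against XY thus changed sign between these 2 uses of the spike-ins. Which scaling is closer to the RNA content of the pools was not tested.

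The promoters of 4 of the genes are shown because, with TMM, their transcripts followed opposite courses over the 9 libraries. On that scale Pds5b and Stag3 rose together where Smc1b and Sgo2a were low (Pearson r -0.78 to -0.87). Sgo1, not shown, was more opposed to Pds5b (-0.97) and Stag3 (-0.95). In normalized CPM, Smc1b and Sgo2a in XO2 and XO3 lay within their XX ranges. Each printed promoter runs 5′ to 3′ from 250 bases before to 50 after the annotated start, in RefSeq sequence of GRCm38.p6. For Stag3 that start lies inside the gene as located below (from 138280240), so its whole printed stretch does too. Capitals mark matches, on either strand, to an E-box, an E2F core, a GC box, a CCAAT box or a TATA box, whose letters are given beside their counts.
Pds5b (chr5:150673577-150673876, plus strand): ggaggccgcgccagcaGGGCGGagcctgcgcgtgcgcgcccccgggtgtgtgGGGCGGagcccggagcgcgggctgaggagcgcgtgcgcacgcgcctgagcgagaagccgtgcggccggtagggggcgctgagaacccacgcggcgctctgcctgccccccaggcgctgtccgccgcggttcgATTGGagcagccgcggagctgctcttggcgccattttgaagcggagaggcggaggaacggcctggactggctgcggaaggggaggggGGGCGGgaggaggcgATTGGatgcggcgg
Stag3 (chr5:138280259-138280558, plus strand): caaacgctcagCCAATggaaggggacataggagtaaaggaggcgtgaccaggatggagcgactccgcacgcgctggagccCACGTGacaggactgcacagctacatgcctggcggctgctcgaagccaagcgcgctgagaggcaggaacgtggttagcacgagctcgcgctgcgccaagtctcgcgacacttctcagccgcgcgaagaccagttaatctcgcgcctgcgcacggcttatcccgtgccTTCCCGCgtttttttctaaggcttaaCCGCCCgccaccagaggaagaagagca
Smc1b (chr15:85131908-85132207, minus strand): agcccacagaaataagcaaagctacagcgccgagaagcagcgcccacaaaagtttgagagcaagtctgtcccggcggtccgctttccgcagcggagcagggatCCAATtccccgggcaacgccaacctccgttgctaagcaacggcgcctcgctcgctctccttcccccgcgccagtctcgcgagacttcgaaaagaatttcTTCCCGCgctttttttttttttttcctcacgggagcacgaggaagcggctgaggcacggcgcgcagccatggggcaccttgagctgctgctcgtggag
Sgo2a, second of its 2 entries (chr1:57995724-57996023, plus strand): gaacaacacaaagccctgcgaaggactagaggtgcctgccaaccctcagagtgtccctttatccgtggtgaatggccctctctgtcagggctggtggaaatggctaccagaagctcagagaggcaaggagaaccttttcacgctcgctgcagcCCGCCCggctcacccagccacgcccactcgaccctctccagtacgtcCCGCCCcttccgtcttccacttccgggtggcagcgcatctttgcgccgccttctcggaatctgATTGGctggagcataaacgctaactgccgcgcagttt
The promoters of Pds5b and Stag3 shared a GC box and a CCAAT box and no other of these motifs. Smc1b and Stag3 each held an E2F core, as did the promoter of Stag1 and the other Sgo2a entry, that is 4 of the 9 genes with a promoter, against 4.6% of the 32851 promoters of the table. These 9 genes include Rec8 and lack Rad21, for which no promoter was at hand. Sgo2a counts if either of its entries matches, whereas the percentages count single promoters. The E2F core searched was GCGGGAA, and it was chosen after the sequences had been seen. It also stood in the promoter of the mitotic Smc1a, outside the 9 genes, and was absent from those of the meiotic Rec8 and Rad21l. The E-box, CACGTG, stood in Stag3 and Sgo1, 2 of 9, against 7.15% of all promoters. The GC box, GGGCGG, was found in 6 of 9 against 35.7% of all promoters. The CCAAT box, was found in 8 of 9 against 37.4%. The TATA box, TATAAA, was found in 1 of 9, in the Sgo2a entry that is not printed, against 13.6%. These are matches of letters and say nothing of binding.

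In mean normalized CPM over the 9 pools the order was Pds5b (331), Stag1 (131), Smc3 (71.2), Rad21 (47.3), Sgo2a (41.5), Sgo1 (34.1), Smc1b (27.3), Stag3 (4.33) and Rad21l (2.24). Since a UMI marks 1 molecule at its 5′ end, these levels are not divided by length. Divided by the length of the longest transcript, in normalized CPM per kilobase, Sgo1 (9.41) came before Sgo2a (8.41) and Rad21l (1.35) before Stag3 (1.03), with no other change. Among neighbours in that order, Rad21 and Sgo2a, Sgo2a and Sgo1, and Stag3 and Rad21l overlapped within every genotype. Smc3 lay above Rad21, and Smc1b above Stag3, in all 9 pools and without overlap in any genotype. Pds5b exceeded Stag1 in 9 of 9 pools, although their ranges overlapped in XX and in XO. Pds5b stood at the 98.5th percentile of all genes by mean level and Smc1b at the 85.1st, while Stag3 (64.0th) and Rad21l (56.3rd) lay near the middle. The plot of levels by pool shows the same order.

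**Figure D1:**
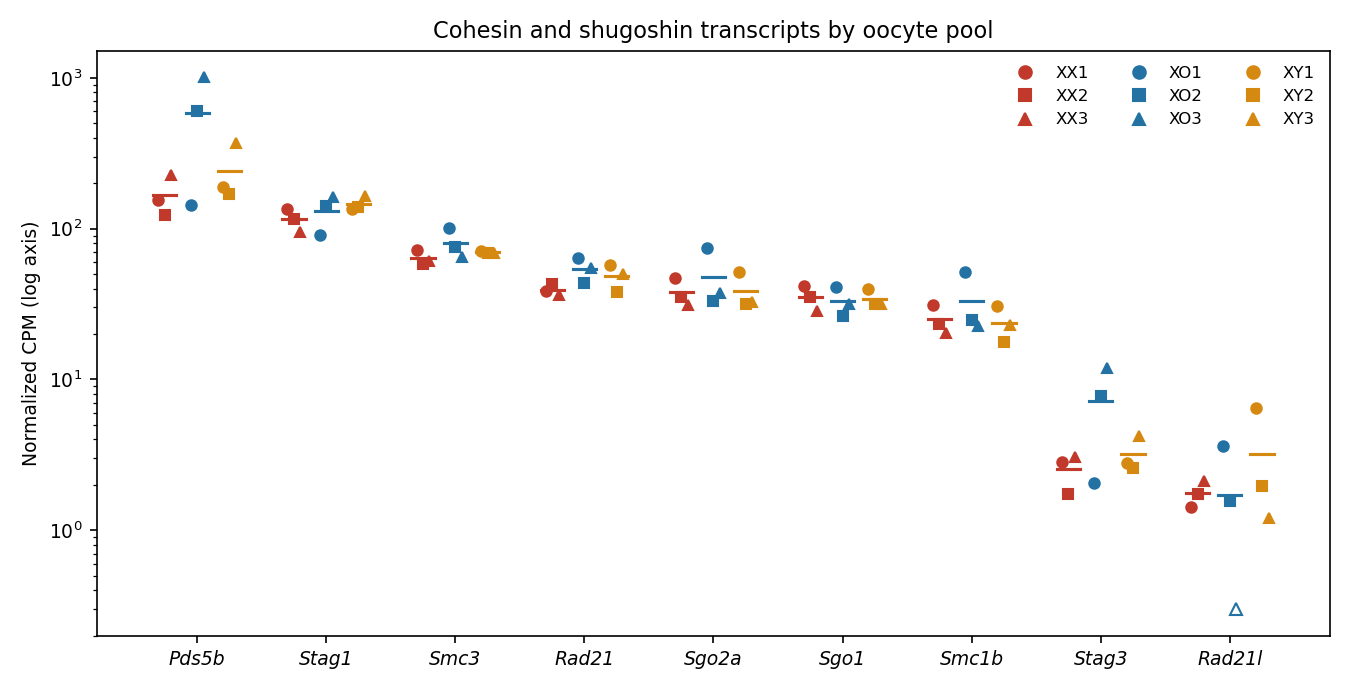
Normalized CPM of the 9 genes (log axis) in each pool, grouped as XX (red), XO (blue) and XY (orange), with a short line at each mean of 3 pools. The open triangle marks the XO3 pool, in which Rad21l had 0 UMIs and which a log axis cannot place. XO2 and XO3 stand above the other pools for Pds5b and Stag3, and XO1 is the highest pool for Smc1b, Smc3 and Sgo2a.

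Smc1b (chr15:85064689-85131964 on the minus strand) encodes the meiotic partner of SMC3. It had 40 to 100 UMIs a library. Its normalized CPM was 31.3, 23.5 and 20.4 in the XX pools, 51.8, 24.8 and 22.6 in the XO pools and 30.7, 17.6 and 22.9 in the XY pools. XO1 lay above all other pools, and XO2 and XO3 within the range of XX. The log2 fold change of XX against XO was -0.40 (SE 0.39, edgeR unadjusted p = 0.327), close to the median gene, and 0.13 without XO1. Smc3 (chr19:53600398-53645833, plus strand), the arm common to mitotic and meiotic rings, was among the steadiest of the set, with a 1.73-fold range over all pools. Its normalized CPM was 72.0, 58.1 and 60.6 in the XX pools, 100, 76.0 and 64.9 in the XO pools and 70.6, 69.0 and 68.8 in the XY pools. The 3 genotypes overlapped, and the XX to XO log2 fold change was -0.34 (SE 0.26, edgeR unadjusted p = 0.222) and -0.095 without XO1.

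Rad21 (chr15:51962240-51991747, minus strand) encodes the mitotic kleisin, and Rad21l (chr2:151645404-151668533, minus strand) a kleisin of meiotic prophase. Rad21 read 38.5, 43.1 and 36.3 normalized CPM in the XX pools, 64.2, 43.4 and 54.8 in the XO pools and 57.6, 37.8 and 49.8 in the XY pools. All 3 XO pools lay above all 3 XX pools, by little for XO2. This difference of -0.46 on the log2 scale (SE 0.27, edgeR unadjusted p = 0.123) equalled the median of all genes, and with TMM it was -0.03. Without XO1 the Rad21 difference was -0.28. Rad21l had 4, 5 and 7 UMIs in the XX pools, 7, 3 and 0 in the XO pools and 14, 6 and 4 in the XY pools. With 50 UMIs in all it fell below the filter and was not tested. The 0 in XO3 allows a level of up to 3 UMIs in that library, about that of XO2, and covers counting error only.

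Stag1 (chr9:100597798-100959375, plus strand) encodes a STAG subunit of mitotic cohesin and was the second most abundant gene. Its normalized CPM was 135, 115 and 95.1 in the XX pools, 91.1, 141 and 161 in the XO pools and 134, 139 and 163 in the XY pools. XO1 was the lowest of all pools, the reverse of its place for Smc1b and Smc3. The XX to XO log2 fold change was -0.18 (SE 0.30, edgeR unadjusted p = 0.555), and with TMM it turned to 0.28. Without XO1 it was -0.34.

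Stag3 (chr5:138280240-138312393, plus strand) encodes the STAG subunit of meiotic cohesin, and its promoter is printed above. It was scarce, with 8, 5 and 10 UMIs in the XX pools, 4, 15 and 21 in the XO pools and 6, 8 and 14 in the XY pools. In normalized CPM these are 2.85, 1.75 and 3.05, then 2.07, 7.75 and 11.9, then 2.79, 2.60 and 4.23. XO2 and XO3 were above every XX and XY pool, and XO1 lay among the XX pools. Stag3 was called lower in XX than in XO, with a log2 fold change of -1.47 (SE 0.59, edgeR unadjusted p = 0.0325, adjusted p = 0.248), or -1.02 relative to the median of all genes. With TMM the difference was -0.98 (edgeR unadjusted p = 0.0935). Leaving out XO1, the XO pool lowest in Stag3, gave -1.87 (edgeR adjusted p = 0.0175), which is therefore no separate support. The call was lost without XX1 (-1.43), XX2 (-1.27), XX3 (-1.60), XO2 (-1.42), XO3 (-0.93), XY2 (-1.42) or XY3 (-1.37).

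Pds5b (chr5:150673739-150810690, plus strand) encodes a HEAT-repeat protein that binds the kleisin with WAPL or with the acetylated ring, and so takes part in both release and upkeep of cohesion. Its UMIs were 436, 349 and 739 in the XX pools, 275, 1162 and 1784 in the XO pools and 405, 519 and 1226 in the XY pools. In normalized CPM these are 155, 122 and 225, then 142, 601 and 1007, then 188, 169 and 370. XO2 and XO3 lay above all other pools, XO1 lay within the XX range, and the third pool was the highest in each genotype. Pds5b was called lower in XX than in XO, with a log2 fold change of -1.80 (SE 0.64, edgeR unadjusted p = 0.0195, adjusted p = 0.221), or -1.34 relative to the median of all genes. With TMM it was -1.26 (edgeR unadjusted p = 0.0546). Without XO1, the XO pool lowest in Pds5b, it was -2.23 (edgeR adjusted p = 0.00608), which is therefore no separate support. The call was lost without XX1 (-1.62), XX2 (-1.62) or XO3 (-1.15). Against XY, the log2 fold change of XX was -0.53 (SE 0.63, edgeR unadjusted p = 0.415), which is not called.

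The 4 pools with the most Pds5b, XO3, XO2, XY3 and XX3, were also those with the lowest mitochondrial share, 2.65%, 3.12%, 3.88% and 3.01%, against 5.09% to 13.1% in the other 5. They also had the lowest ERCC shares, 0.204% to 0.369% of UMIs against 0.478% to 0.862%. The part of either in the Pds5b and Stag3 values was not tested.

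Sgo1 (chr17:53674786-53689333, minus strand) and Sgo2a (chr1:57995971-58025899, plus strand) encode the shugoshins, of which SGO2 is the main protector of centromeric cohesin in oocytes. Sgo1 read 41.7, 35.4 and 28.6 normalized CPM in the XX pools, 40.9, 26.4 and 31.6 in the XO pools and 39.5, 31.6 and 31.7 in the XY pools. It was the steadiest gene of the set, with a 1.58-fold range over all pools, and the 3 genotypes overlapped. Its XX to XO log2 fold change was 0.09 (SE 0.28, edgeR unadjusted p = 0.742), -0.04 without XO2 and 0.33 without XO1. Sgo2a read 47.0, 35.4 and 31.4 in the XX pools, 74.0, 33.1 and 37.3 in the XO pools and 51.6, 31.6 and 32.6 in the XY pools, again in normalized CPM. XO1 was the highest pool, as for Smc1b, and the other XO pools lay within the XX range. The XX to XO log2 fold change of Sgo2a was -0.34 (SE 0.38, edgeR unadjusted p = 0.382), and without XO1 it was 0.16. Sgo2a overlaps a gene on the opposite strand. The authors aligned reads in stranded mode, and whether their UMI counting used strand is not stated. The third shugoshin gene, Sgo2b, had 0 to 1.42 normalized CPM.

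The comparison of XX with XO asks what goes with a single X chromosome and, not to be told apart, with the other cross. That of XX with XY, from the same cross, sets the second X chromosome against the Y. In XX against XO, 2 of the 8 tested genes were called, both lower in XX, where 18.1% of all genes tested were called and 16.7% were called lower in XX. The median log2 fold change of the 8 was -0.37, beside -0.46 over all genes, and 7 of the 8 were negative. With TMM 0 of 8 were called, where 11.9% of all genes were, 4 were negative and 4 positive, and the median was 0.00. Neither Pds5b nor Stag3 passed adjustment over the 9 pools, and 0 of all genes did with edgeR, 1986 being below an unadjusted p of 0.05. With TMM 2 genes passed, and 178 did with DESeq2 and its own size factors. Without XO1, 2633 of the 11590 genes then tested passed adjustment, Pds5b and Stag3 among them, XO1 being the XO pool lowest in both. Of all called genes 7.75% were higher in XX with the spike-in factors, 49.5% with TMM and 84.5% with the ERCC total as library size.

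In XX against XY, 0 of 8 were called by edgeR, also at the unadjusted p of 0.05, where 5.8% of all genes tested were. With TMM 0 of 8 were called, where 5.35% of all genes were. DESeq2 called 0 as well, with its own size factors or those of the spike-ins. The 8 log2 fold changes ran from -0.53 for Pds5b to 0.08 for Smc1b, with a median of -0.21 beside -0.19 over all genes. In XY against XO, 0 of 8 were called by edgeR at the unadjusted p of 0.05, where 9.93% of all genes were, and 0 by DESeq2. With TMM 0 of 8 were called, where 9.07% of all genes were. Pds5b had a log2 fold change of -1.27 (SE 0.63, edgeR unadjusted p = 0.0745) and Stag3 one of -1.14 (SE 0.58, edgeR unadjusted p = 0.0789). Pools of XY and XO with the same number deviated together, and a fit that took this number as a block called Pds5b, at -1.11 (edgeR unadjusted p = 0.0489). Without XO1, the XO pool lowest in both, Pds5b (-1.66) and Stag3 (-1.50) were called. Of all called genes 24.3% were higher in XX than in XY and 17% higher in XY than in XO with the spike-in factors, against 48.3% and 59.5% with TMM. The ERCC total as library size gave 85.9% and 46.3%. These comparisons share pools, so their values are set side by side only. The plot of fold changes gives all 24 values under both scalings.

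**Figure D2:**
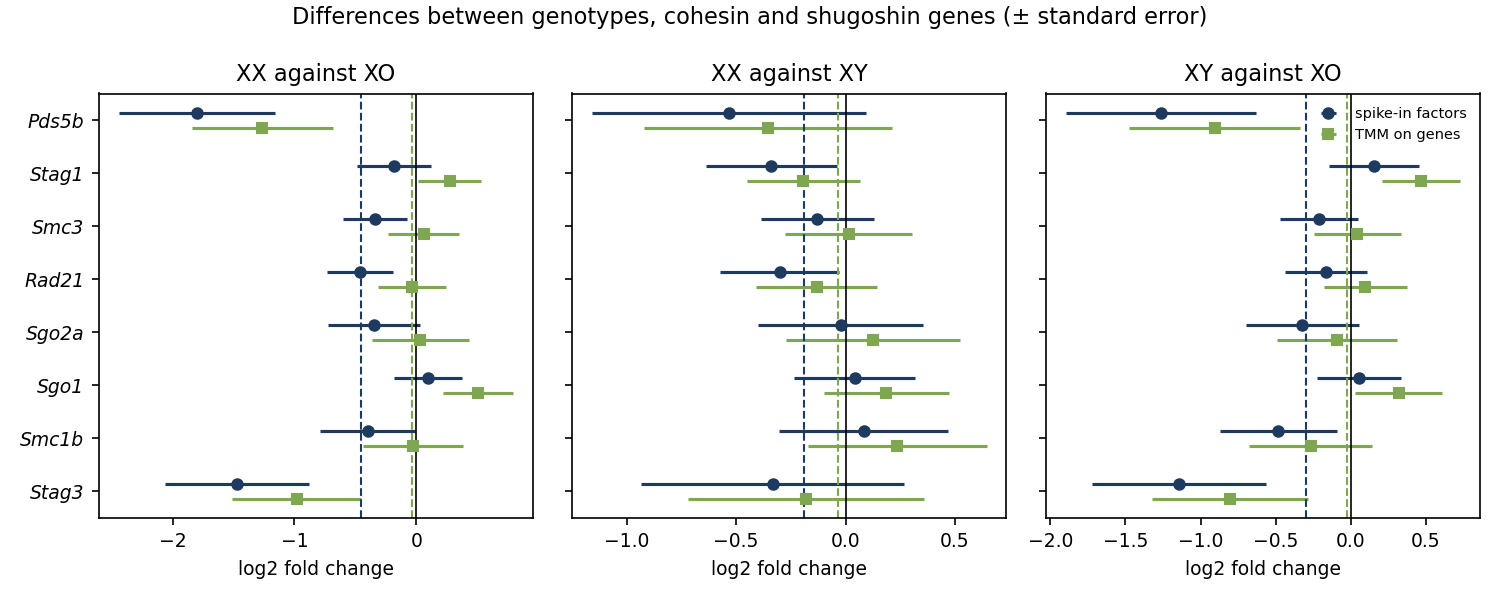
Log2 fold changes with standard errors of the 8 tested genes in each comparison, with spike-in factors (dark circles) and TMM on the genes (green squares), 3 pools a genotype. Dashed lines mark the median of all 10993 genes. In XX against XO, Pds5b and Stag3 stand left of the dashed lines with either scaling, and Smc3, Stag1 and Sgo2a change sign with the scaling.

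Pds5b took 25.0% of the UMIs of the 9 genes in XO1 and 72.4% in XO3, a share that needs no scaling of libraries. The 9 genes made up 0.0478% to 0.0978% of a library's UMIs, and 0.0270% to 0.0417% without Pds5b.

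**Figure D3:**
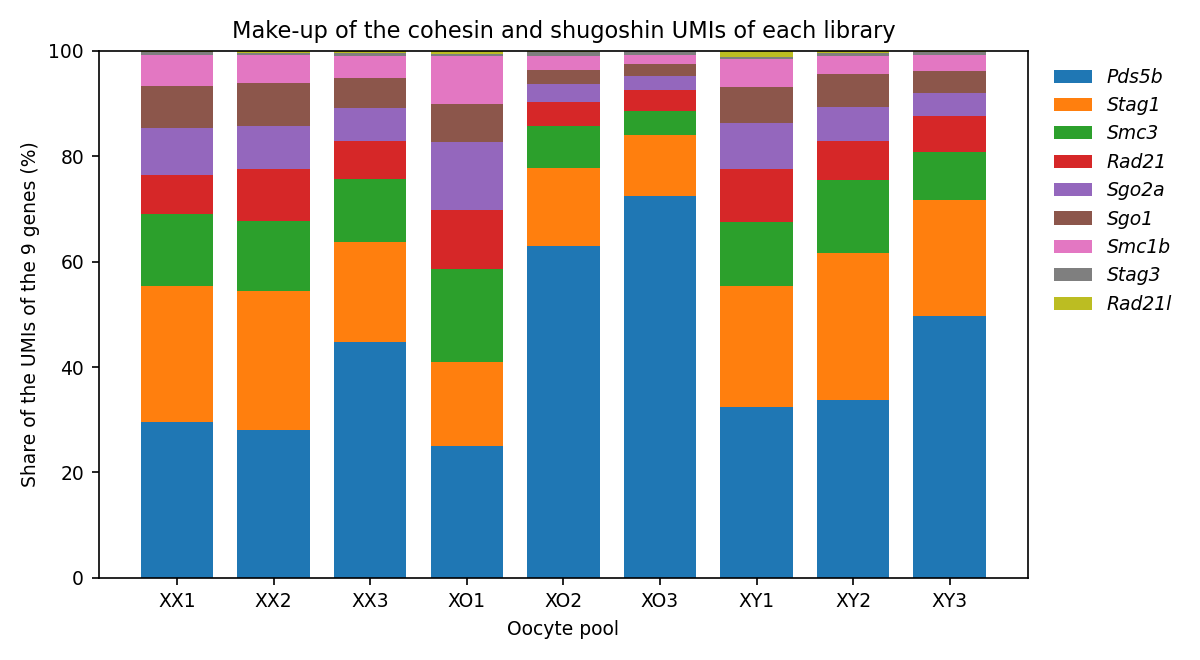
Share of each of the 9 genes in their summed UMIs, as stacked bars to 100%, 1 bar for each pool. The Pds5b share (bottom) is 63.0% in XO2 and 72.4% in XO3, and 25.0% in XO1, the lowest of all.

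Over the 9 pools, in log2(CPM + 1) with TMM, Pds5b followed Stag3 with a Pearson r of 0.98, and Sgo1 ran against Pds5b at -0.97. Smc1b and Sgo2a went together at 0.96. The gene whose course was most like that of Pds5b was Npffr2 and then Atp5k, both with r of 0.99. For Stag3 these were Coa7 and Popdc2, both with r of 0.99. For Sgo2a they were Gda (0.996) and Smc4 (0.995), the latter a condensin arm, and for Smc1b they were Gm15832 and Gm13167, both with 0.99. For Sgo1 they were Wnk3 and Gm44511, both with r of 0.98, and for Rad21 Acadsb (0.97) and Dnajb8 (0.96). Smc3 was most like Mapk8 and Cnksr3, both with 0.96, and Stag1 like 6030443J06Rik (0.97) and Dbi (0.96). These are descriptions over 9 points that share library, depth and pool, picked from 10992 genes.

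Shares among paralogs do not depend on how libraries are scaled. The meiotic Smc1b took 25.4%, 22.5% and 23.9% of the UMIs of Smc1a and Smc1b in the XX pools, 43.3%, 24.6% and 20.1% in the XO pools and 36.1%, 21.9% and 28.0% in the XY pools. Smc1a was thus the larger part in every pool, and the share was highest in XO1. Stag3 took 1.19% to 2.33% of the UMIs of Stag1, Stag2 and Stag3 in XX, 1.53% in XO1, 4.66% in XO2, 6.12% in XO3, and 1.61% to 2.32% in XY. The 95% Wilson intervals, which cover counting error only, were 0.598% to 3.87% for XO1 and 4.04% to 9.18% for XO3, and did not overlap.

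Pds5b took 63.6%, 64.4% and 79.9% of the UMIs of Pds5a and Pds5b in the XX pools, 58.8%, 92.1% and 95.1% in the XO pools and 69.7%, 69.3% and 87.3% in the XY pools. XO1 was the lowest and XO3 the highest of all pools. Sgo2a took 51.5% ± 1.29 of the shugoshin UMIs in XX pools, 58.0% ± 5.40 in XO pools and 52.4% ± 3.70 in XY pools (SD, n = 3). The XX and XO pools did not overlap, with 50.0% to 52.3% against 54.1% to 64.1%, or 54.1% and 55.7% without XO1. Stag2, the X-linked STAG gene, took 26.0%, 20.5% and 24.9% of STAG UMIs in XX, 16.4%, 12.4% and 8.11% in XY, and 31.0%, 10.9% and 10.8% in XO. The means of XX and XY were 23.8% ± 2.91 and 12.3% ± 4.16 (SD, n = 3), and the pools did not overlap.

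In exact two-sided permutation tests, none of the 20 comparisons of shares passed, with adjusted p from 0.667 to 1. Between 2 genotypes of 3 pools the smallest p possible is 0.1, which Stag2 in XX against XY and Sgo2a in XX against XO reached. For XX against the 6 other pools, where the smallest possible is 0.0119, the exact p was 0.143 for Stag2, 0.238 for Sgo2a, 0.31 for Stag3, 0.31 for Pds5b and 0.452 for Smc1b. The Stag2 difference of XX against those pools was 8.84 percentage points, and 12.1 without XO1. The share of kleisin UMIs held by Rec8 was not analysed here.

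**Figure D4:**
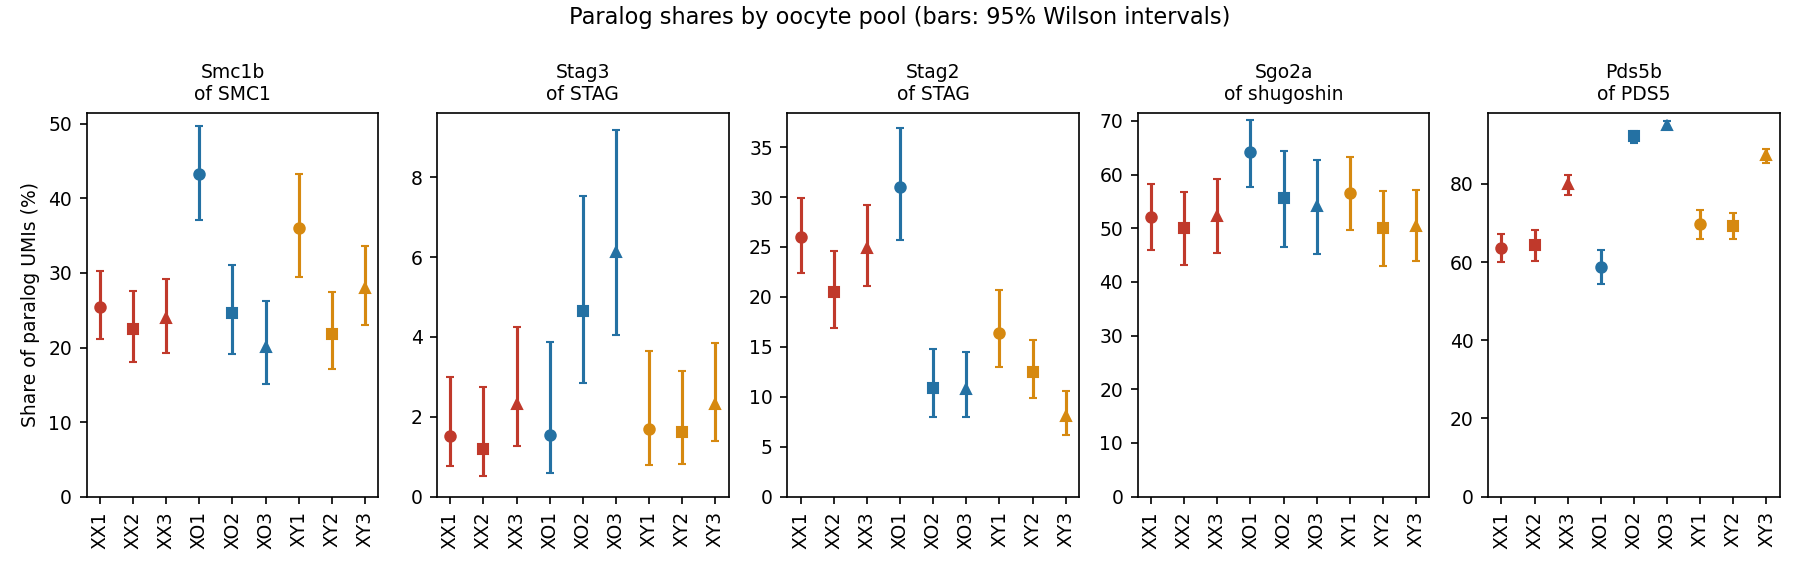
Share of each named gene in the UMIs of its paralogs by pool, in percent, with 95% Wilson intervals as bars and colours by genotype as in the plot of levels. XX pools lie above XY pools for Stag2 (20.5% to 26.0% against 8.11% to 16.4%), and XO1 is the highest pool for Smc1b, Stag2 and Sgo2a and the lowest for Pds5b.

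Of the 10 partners of cohesin that were set beside the 10 genes, 1 was called higher in XX than in XO, and another was called lower, where 18.1% of all genes were called. Hdac8, on the X chromosome, encodes the deacetylase that frees SMC3 for another round of loading. It read 35.3, 28.0 and 40.8 normalized CPM in the XX pools, 9.84, 19.6 and 18.1 in the XO pools and 12.1, 13.7 and 17.8 in the XY pools. All XX pools lay above all others. Its log2 fold change was 1.13 against XO (SE 0.34, edgeR unadjusted p = 0.00767, adjusted p = 0.203) and 1.25 against XY (SE 0.33, edgeR unadjusted p = 0.00407, adjusted p = 0.425). With the same spike-in factors, the value against XO was 0.93 without XO1. Both calls were kept with TMM, at 1.59 against XO. Esco2 encodes an acetyltransferase that locks SMC3 during replication. It read 143, 133 and 150 in the XX pools, 280, 253 and 403 in the XO pools and 176, 144 and 168 in the XY pools, in normalized CPM, all XO pools above all others. Esco2 was lower in XX than in XO by a log2 fold change of -1.14 (SE 0.29, edgeR unadjusted p = 0.00294, adjusted p = 0.203) and lower in XY than in XO by -0.94 (SE 0.29, edgeR unadjusted p = 0.00872, adjusted p = 0.485). Both calls were kept with TMM, at -0.67 and -0.64, and both were lost with the ERCC total as library size, at -0.20 and -0.77. The second was lost without XY2 (-0.79, edgeR unadjusted p = 0.0693), and without XO1 the first was -1.17.

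The X-linked ring subunits Smc1a and Stag2 are the mitotic paralogs of Smc1b and Stag3. Smc1a read 91.9, 80.9 and 64.9 normalized CPM in the XX pools, 67.8, 76.0 and 89.8 in the XO pools and 54.4, 62.8 and 58.9 in the XY pools. The XX pools lay above the XY pools and overlapped those of XO. The log2 fold change against XY was 0.43 (SE 0.26, edgeR unadjusted p = 0.124) with the spike-in factors and 0.57 with TMM (edgeR unadjusted p = 0.0406), and against XO it was 0.02 with the spike-in factors, 0.47 with TMM (edgeR unadjusted p = 0.0801) and -0.02 without XO1. Relative to the median of all genes, the spike-in value against XO was 0.48. Stag2 read 48.4, 30.1 and 32.6 in the XX pools, 41.9, 18.1 and 20.9 in the XO pools and 27.0, 20.2 and 14.8 in the XY pools, in normalized CPM. All XX pools lay above the XY pools, and XO1 lay with XX. The log2 fold change against XY was 0.85 (SE 0.40, edgeR unadjusted p = 0.0591) and with TMM 0.98 (edgeR unadjusted p = 0.0444). Against XO it was 0.46 (SE 0.40, edgeR unadjusted p = 0.277) and 0.83 with TMM (edgeR unadjusted p = 0.0793), and without XO1 it was called at 0.97 (edgeR unadjusted p = 0.0172). Pds5a, the paralog of Pds5b, was called in none of the comparisons, with 51.2 to 99.9 normalized CPM.

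**Figure D5:**
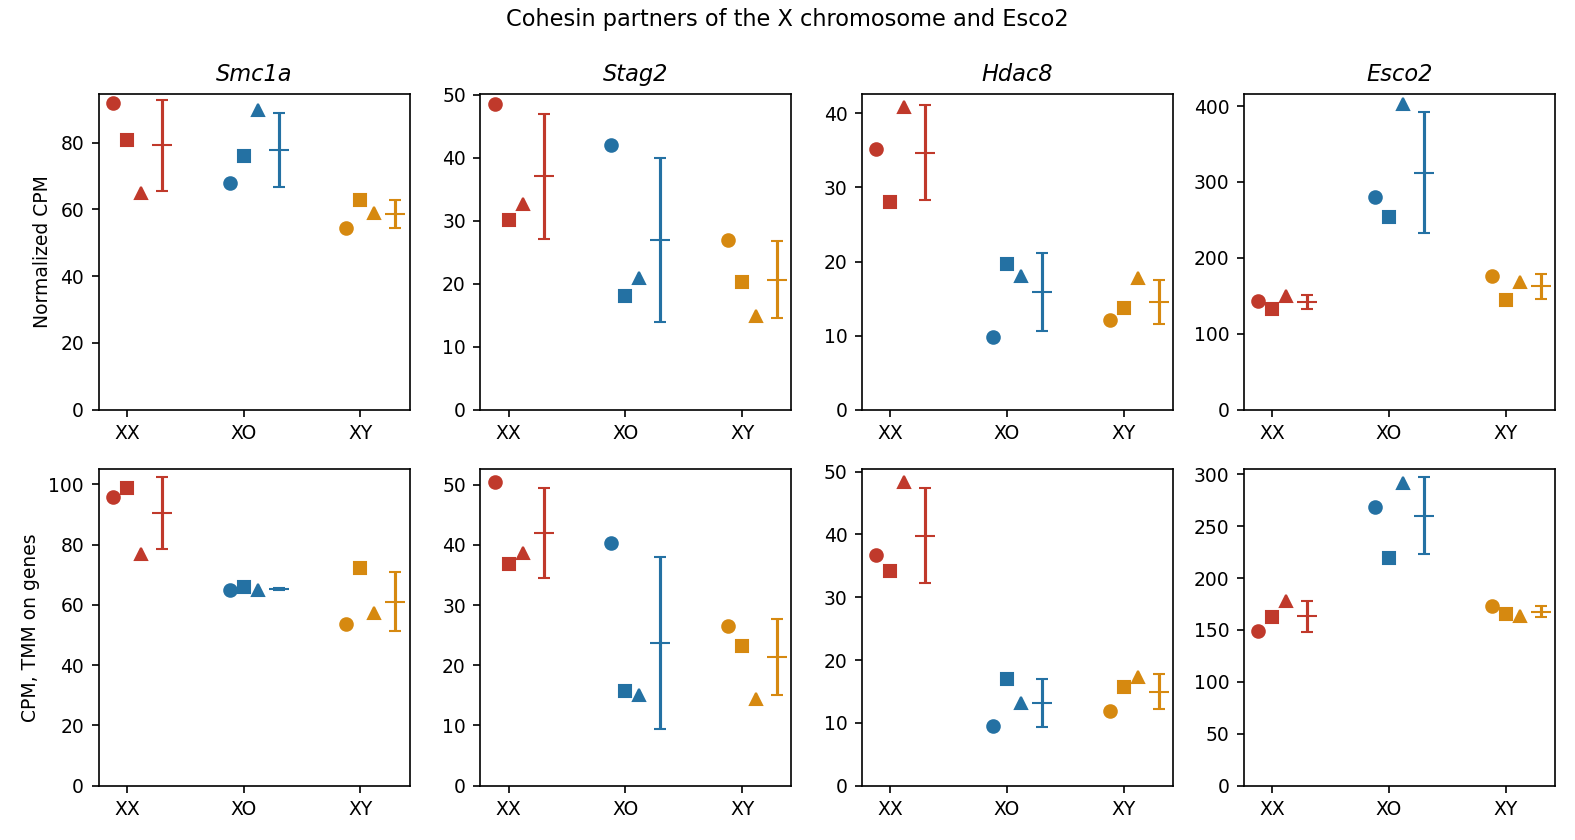
Smc1a, Stag2, Hdac8 and Esco2 by pool in normalized CPM (top) and in CPM scaled by TMM on the genes (bottom), with the mean and SD of 3 pools beside the points. For Hdac8 every XX pool (28.0 to 40.8 normalized CPM) lies above every other pool (9.84 to 19.6), and for Esco2 every XO pool above the rest.

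Among 19 genes of shugoshin partners, PP2A and cohesin cleavage, 17 were tested and 4 were called in XX against XO, all lower in XX, where 16.7% of all genes were called lower. Meikin, which guards centromeric cohesin in the first meiotic division, had mean normalized CPM of 8.42 in XX pools, 23.4 in XO pools and 12.4 in XY pools, and XX and XO did not overlap. Its log2 fold change for XX against XO was -1.46 with the spike-in factors (SE 0.38, edgeR unadjusted p = 0.00361, adjusted p = 0.203), and -1.58 without XO1. TMM kept this call at -0.97, and it was lost with the ERCC total (-0.54). For XY against XO the log2 fold change was -0.91 (edgeR unadjusted p = 0.0362), a call that TMM did not keep (-0.60). The latter call was lost without XX1 (-0.85), XX3 (-0.85), XO3 (-0.53), XY1 (-0.98), XY2 (-0.70) or XY3 (-0.90). The others were Ppp2r1a (the PP2A scaffold), Ppp2r5a (a PP2A B56 subunit) and Csnk1e (a casein kinase), with log2 fold changes of -2.72, -0.94 and -2.17, none of them called with TMM, where their values were -2.16, -0.48 and -1.65. Without XO1 they were -3.23, -1.05 and -2.62. In XY against XO, Ppp2r1a and Csnk1e were not called, but the replicate block called both, at -2.26 and -1.93. Each of the 3 calls in XX against XO was lost without XX1, and Ppp2r1a and Csnk1e also without XX2, XO2, XO3 or XY2, and Csnk1e without XX3, over which their values ran from -1.89 to -2.69 for Ppp2r1a, from -1.78 to -2.58 for Csnk1e, and stood at -0.74 for Ppp2r5a. The median of the 17 was -0.57, beside -0.46 over all genes.

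Of 15 genes of condensin and the SMC5/6 complex, the sister machines of cohesin, 12 were tested. In XX against XO, where 18.1% of all genes were called, only Nsmce4a was (-2.82, lost without XX1 at -2.54, XX2 at -2.39 or XO3 at -1.83), in XX against XY, where 5.8% were, only Ncapg2 (-1.10, lost without XX2 at -1.17, XX3 at -0.91 or XY1 at -0.70), and in XY against XO none, at the unadjusted p of edgeR. Neither Nsmce4a (-2.28) nor Ncapg2 (-0.94) was called with TMM, and without XO1 Nsmce4a was -3.35. In XY against XO the replicate block called Ncapg2 higher in XY (0.74). The median of the 12 was -0.49 in XX against XO, beside -0.46 over all genes.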

How the data were processed

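RNA of 9 oocyte pools (3 each of XX, XO and XY) was sequenced with an in-house Smart-seq3 protocol. The authors aligned stranded reads with HISAT2 to GRCm38 (mm10), their versions being not given in the sources used here, and deposited UMI counts per gene from reads of 5′ exons. The authors also deposited a signal named normalized CPM, which on checking is each count column times 1 constant, and log2 values with batch effects regressed out, used here for paralog shares as an alternative only. The XO column without a number was taken as XO1.

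Of the 28052 genes with counts, 1 is without a normalized value; 79 ERCC spike-ins, and 1 row that names neither and has 0 UMIs, were kept out of the gene totals. The 10993 genes passing filterByExpr were tested with the edgeR (version 4.0.16) quasi-likelihood test in R 4.3.3, 1 fit over the 3 genotypes, with gene totals times the TMM factors of the spike-ins as library sizes, two-sided. As in the study, a call is an unadjusted p under 0.05; Benjamini-Hochberg adjusted p over all genes stands beside it. The fit was run on simulated data with equal spike-in counts in all libraries and the same dispersion for all genes. That simulation cannot test the spike-in scaling or the effect of a pool such as XO1. Paralog shares were compared by exact permutation tests (scipy 1.17.1).

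Alternatives were TMM on genes, the ERCC total as library size, DESeq2 1.42.0, no filter, sva 3.50.0 covariates, the replicate number as a block, 2-genotype fits and each pool left out, and, added after seeing the data, XO1 and XY1 left out together. All fits with pools left out used the spike-in factors. Genes named outside the 10 are paralogs, list genes called in any comparison, and the 2 genes with the highest r for each tested gene. The members and lists were chosen with earlier results of these data known. Same-numbered pools of XY and XO deviated together (correlations 0.83, 0.278 and 0.773), a pairing known from the values alone. Those of XX and XO (0.468, -0.447 and 0.679) did so for numbers 1 and 3 and not for number 2. The same held for XX and XY (0.435, -0.0595 and 0.726). No 2 pools of a genotype were duplicates.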

Additional observations from a re-analysis of the deposited data

How the results depend on the processing

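The spread between pools and the scaling limit these results more than the UMI counts do, except for Stag3 and Rad21l, whose few UMIs leave wide counting errors. For XX against XO the main counts are 1986 called genes and 2 called genes of the set. These became 1311 and 0 with TMM, 343 and 0 with the ERCC total, 3953 genes with no filter, and 4171 and 4 with sva. They became 4548 genes with XO1 and XY1 left out, and the set's count was 1 with DESeq2 and its own size factors and 1 with only the 2 genotypes fitted. For XX against XY (638 and 0) they were 284 genes with the ERCC total, 1214 with no filter, 2522 and 2 with sva, 1007 with the replicate block, 1046 with 2 genotypes and 1896 with XO1 and XY1 left out. For XY against XO (1092 and 0) they were 136 genes with the ERCC total, 2735 and 1 with no filter, 3114 and 3 with sva, 1827 and 1 with the replicate block, 443 with 2 genotypes, and 2806 and 2 with XO1 and XY1 left out. Leaving out each pool in turn gave 828 to 4073 genes and 0 to 2 of the set for XX against XO, 384 to 1280 genes for XX against XY, and 373 to 3470 genes and 0 to 2 of the set for XY against XO.

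In XX against XO the log2 fold changes that turned positive with the ERCC total were those of Smc1b (0.52), Smc3 (0.58), Stag1 (0.56), Rad21 (0.44) and Sgo2a (0.59). With TMM they were those of Smc3 (0.059), Stag1 (0.28) and Sgo2a (0.033), and with DESeq2 and its own size factors that of Stag1 (0.16). With XO1 and XY1 left out Smc1b (0.13), Sgo2a (0.16) and Smc1a (-0.018) changed sign. In XX against XY, Stag3 (0.34) and Pds5b (0.17) did with the ERCC total. Over single pools left out, XX against XO ran from -0.61 to 0.13 for Smc1b, from -0.043 to 0.33 for Sgo1, from -0.55 to 0.16 for Sgo2a and from -0.018 to 0.21 for Smc1a. The cause of these changes was not tested.

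Of the shares, the Smc1b difference of XX from the other pools turned from -5.05 to 0.29 percentage points with XO1 and XY1 left out. That of Pds5b passed with the batch-regressed values (-6.04). In those values the Pds5b share was 81.1%, 80.4% and 80.2% in the XO pools, where UMIs gave 58.8%, 92.1% and 95.1%. Much of the spread between pools had thus been removed before that test, which therefore cannot measure it. Over single pools left out the Stag2 difference was 7.48 to 12.1 percentage points and passed without XO1. The replicate block, besides these counts, called Stag2 in XX against XY (0.85) and Pds5b (-1.11), Ppp2r1a (-2.26), Csnk1e (-1.93) and Ncapg2 (0.74) in XY against XO, and it changed no other call of a gene given with a fold change. DESeq2 with spike-in factors called 2 of the set in XX against XO.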
